A study of Homo sapiens with 12 samples.

Results

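The cadherins and plaque proteins described here are the genes by which epithelial cells hold on to each other: the classical cadherins CDH1 and CDH3, the desmosomal cadherins DSC2, DSC3, DSG2 and DSG3, and the plaque proteins DSP, JUP, PKP1 and PKP3. These 10 genes were chosen by name with earlier results of these data known. Their counts beside the shares over all items are therefore descriptions, not tests of the set. The array's 19 probes that carry their symbols were taken from 47224 probes in all. Of the 10 genes, 9 were measured above background often enough to be tested, among 11205 named genes that were tested. PKP1, which codes for plakophilin 1, was not: its brighter probe was detected on 1 of the 12 arrays, an ErbB2 array, and its other probe on 0.

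The measurements were 12 Illumina bead arrays of biotin-labelled total RNA from MCF10A, a human breast epithelial line that does not form tumours. The study compared cells named, as genotype or variation, Cas/ErbB2, ErbB2, Cas and Ctr MCF10A.B2, with 3 arrays each, and the last is called control here. All 4 groups are listed as modified MCF10A cells, and what the control carries, how either protein was raised or switched on, whether a group is 1 clone, and whether replicates are separate cultures are all unstated in the labels, so p-values measure the spread between these arrays, which may be technical. ErbB2 is a receptor tyrosine kinase, Cas is taken from the series title as p130Cas, the focal adhesion adaptor encoded by BCAR1, and the title names an invasive signature that depends on both. BCAR1 was not called in any comparison (Cas/ErbB2 against control -0.49 ± 0.25 (adjusted p = 0.124), Cas against control -0.31 ± 0.25 (adjusted p = 0.379)), and ERBB2 was lower in the arrays labelled Cas/ErbB2 than in control, -1.17 ± 0.17 (adjusted p = 0.000211), while ErbB2 against control gave -0.37 ± 0.17 (adjusted p = 0.126). Neither gene was thus higher on the arrays named after it, so the names below are those of the labels only, and whether these probes can read what was introduced was not tested.

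Classical cadherins span the gap between neighbouring cells at adherens junctions and are tied to actin through catenins. Desmosomes do the same for keratin filaments: desmocollins and desmogleins bind each other outside the cell, plakoglobin (JUP) and plakophilins gather their tails, and desmoplakin (DSP) links the plaque to keratins. In basal-type mammary epithelial cells such as MCF10A both kinds of junction are present, and loss of E-cadherin or of desmosomes is a known feature of cells that become motile.

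Values are log2 signals after background correction and quantile normalization, differences are first group minus second on that scale ± the standard error that limma gives, and a call means an adjusted p under 0.05 over 16171 items (named genes, each by its brightest kept probe, and unnamed probes). With 3 arrays against 3, an exact permutation test of a single gene could not give a p under 0.1, so the fit across all items was used. The 9 Cas/ErbB2, ErbB2 and Cas arrays had median raw signals of 477.47 to 622.85 and 12864 to 15984 detected probes, against 170.94 to 202.38 and 19076 to 19416 on the 3 control arrays. Only the control arrays carry a hybridization mark in their names: III Hyb for replicates 1 and 2, II Hyb for replicate 3. Control thus cannot be told apart from its hybridizations, and Cas/ErbB2 against Cas, which uses no control array, is also given for the members. Cas/ErbB2 replicate 3 was less like its group (Pearson's r across probes at most 0.966, against at least 0.982 between the other Cas/ErbB2 arrays) and had the highest mean raw signal, 2094.5, so results are also given without it. Of the basal markers, all 4 with a probe (of 8 listed) were detected on every array (summed signal 61243 to 77197 in Cas/ErbB2, 62211 to 71790 in ErbB2, 56887 to 64771 in Cas and 69376 to 78563 in control), whereas the leukocyte markers PTPRC and CD3E, the endothelial markers CDH5 and KDR and the 3 melanocyte markers were detected on none. The remaining endothelial marker, PECAM1, was detected on all 12 arrays. Of 10 fibroblast or mesenchymal markers, VIM and DCN were detected on all 12 arrays by at least 1 of their probes. COL3A1, PDGFRB, THY1 and CDH11 were detected on none. By the brightest probe of each, 1 of the 10 was detected on all 3 Cas/ErbB2 arrays and 4 on all 3 control arrays. In ErbB2 and in Cas it was 3. Summed over these brightest probes, signals were 48595 to 50480 in Cas/ErbB2 and 48090 to 50195 in ErbB2. In Cas they were 38121 to 46021 and in control 42729 to 47998. The summed signal of the 4 leukocyte markers was 6608.9 to 9032.9 in Cas/ErbB2, 4442.9 to 4891.5 in ErbB2, 3518 to 4645.6 in Cas and 3155.2 to 4000.1 in control, carried by CD14 and CD68, while PTPRC was not detected. The summed signal of the 7 luminal markers was 11002 to 14663 in Cas/ErbB2, 18644 to 22766 in ErbB2, 19375 to 26861 in Cas and 11534 to 16583 in control, and the part of these marker signals in the results below was not tested.

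The genes lie in groups along the genome. In the RefSeq annotation of GRCh38.p14, DSC3, DSC2, DSC1, DSG1, DSG4, DSG3 and DSG2 follow each other on chromosome 18 without another protein-coding gene between them, with CDH2 just before DSC3, and CDH3 and CDH1 are neighbours on chromosome 16. DSP lies on chromosome 6, JUP on chromosome 17, PKP3 on chromosome 11 and PKP1 on chromosome 1. Promoter windows of 300 bases (250 before the start of transcription and 50 after it) were found in RefSeq for 7 of the 10 genes. The windows of the 4 desmosomal genes whose signals moved together are printed 5′ to 3′ on the strand of the gene, with capitals marking the E-box CAGGTG or its reverse complement CACCTG, the site bound by repressors of the SNAI and ZEB families: DSC3 (chr18:31042693-31042992, minus strand), DSG3 (chr18:31447491-31447790, plus strand), DSP (chr6:7541421-7541720, plus strand) and the second of 2 windows of JUP (chr17:41785927-41786226, minus strand).
DSC3: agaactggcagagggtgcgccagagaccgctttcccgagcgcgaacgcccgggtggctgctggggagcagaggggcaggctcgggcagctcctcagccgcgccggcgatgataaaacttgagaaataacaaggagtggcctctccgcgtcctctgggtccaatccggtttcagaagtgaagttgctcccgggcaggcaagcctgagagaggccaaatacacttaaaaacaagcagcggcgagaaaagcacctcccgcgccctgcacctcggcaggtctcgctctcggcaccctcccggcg
DSG3: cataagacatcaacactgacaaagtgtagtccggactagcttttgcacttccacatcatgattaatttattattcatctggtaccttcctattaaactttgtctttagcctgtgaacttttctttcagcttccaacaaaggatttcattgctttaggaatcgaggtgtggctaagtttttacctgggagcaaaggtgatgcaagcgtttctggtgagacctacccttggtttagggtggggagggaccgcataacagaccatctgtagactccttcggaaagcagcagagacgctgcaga
DSP: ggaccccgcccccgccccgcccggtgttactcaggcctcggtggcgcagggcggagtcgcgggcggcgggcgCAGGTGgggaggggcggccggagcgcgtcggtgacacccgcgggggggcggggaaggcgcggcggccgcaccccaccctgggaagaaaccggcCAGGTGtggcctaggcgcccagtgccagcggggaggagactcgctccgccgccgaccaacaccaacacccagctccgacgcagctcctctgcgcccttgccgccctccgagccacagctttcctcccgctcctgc
JUP: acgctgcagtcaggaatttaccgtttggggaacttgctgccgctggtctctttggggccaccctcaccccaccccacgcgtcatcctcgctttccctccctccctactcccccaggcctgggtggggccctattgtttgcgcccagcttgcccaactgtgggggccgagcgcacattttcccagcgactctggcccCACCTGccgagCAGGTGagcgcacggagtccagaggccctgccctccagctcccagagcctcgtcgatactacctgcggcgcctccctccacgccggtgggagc
The DSP window held 2 matches, beginning 178 and 85 bases before the start, and the JUP window 2 matches, beginning 54 and 43 bases before the start. The windows of DSC3 and DSG3, the other JUP window and the PKP1 window held 0. DSC2 and DSG2, whose brightest probes were not called, held 1 match in 1 of 2 windows and 2 matches. A match was present in 4 of the 9 windows of these genes and in 7231 of 35116 windows of the same length (20.6%), and it says only that these letters are there.

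In Cas/ErbB2, the desmosomal genes DSC3, DSG3, DSP and JUP and the classical cadherins CDH1 and CDH3 were lower than in control, and no member was higher. In bulk RNA, fewer cells with a transcript and less of it per cell cannot be told apart. The counts were 6 lower, 0 higher and 3 not called of 9 tested, and their median difference was -0.77 against 0.00 over all items. Calls were common in this comparison: 45.5% of all items were called and 24.5% were called lower, and among the 8406 items detected on all 12 arrays, as these members were, 19% were called lower. The arrays of Cas/ErbB2 and control did not overlap for 6 of the 9 members, where 53.5% of all items did not overlap.

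**Figure D1:**
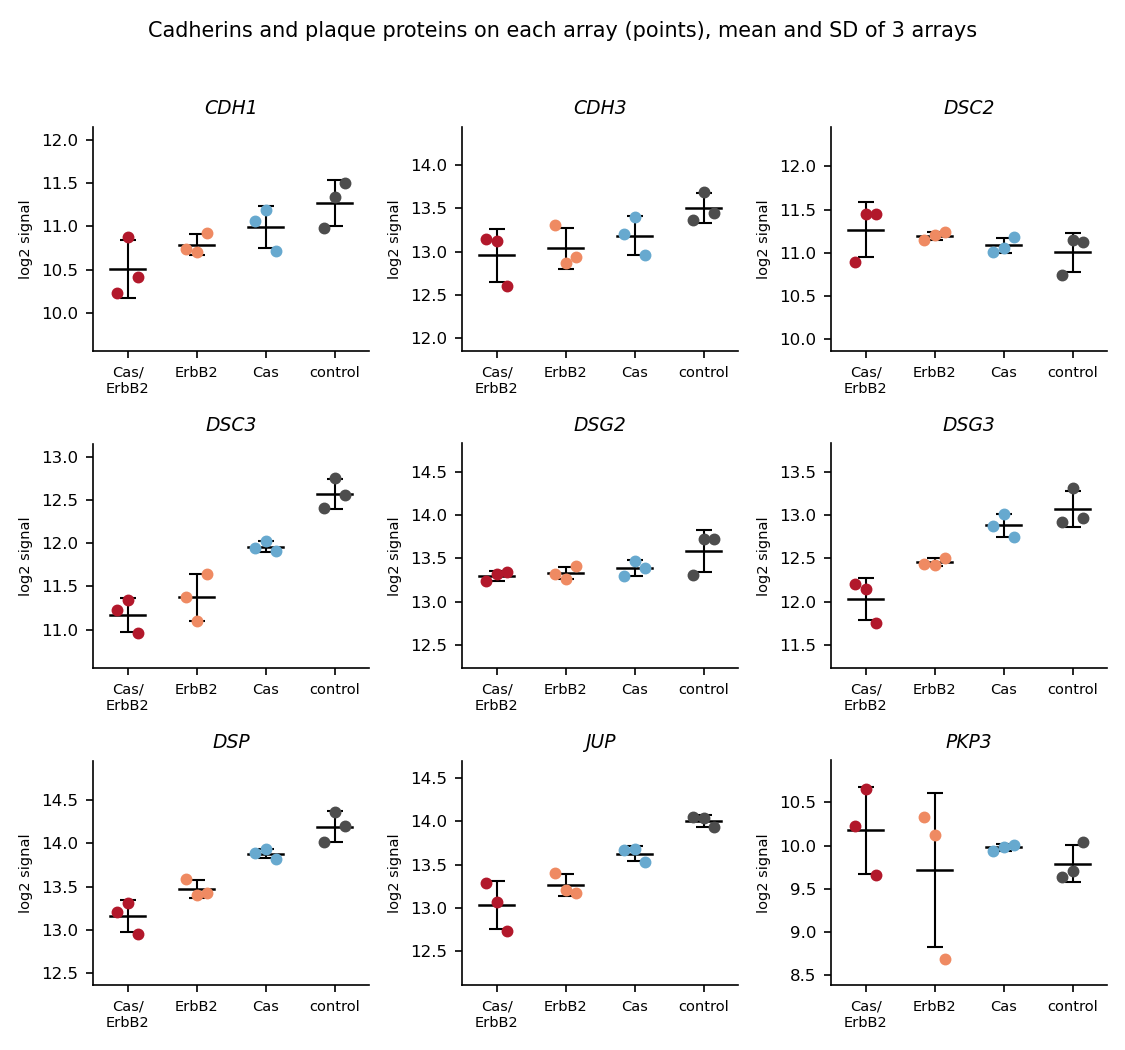
Log2 normalized signal of the 9 tested genes on each array, by group (3 arrays each, points), with the mean and SD as lines; the vertical axis differs between panels. In the panels of DSC3, DSG3, DSP and JUP the groups step up from Cas/ErbB2 through ErbB2 and Cas to control, while those of DSC2 and PKP3 do not.

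DSC3, desmocollin 3, is the desmocollin of the basal layers of stratified epithelia. Its log2 signal was 11.22, 11.34 and 10.96 on the Cas/ErbB2 arrays, 11.38, 11.10 and 11.64 on the ErbB2 arrays, 11.94, 12.03 and 11.92 on the Cas arrays and 12.41, 12.75 and 12.56 on the control arrays. Every Cas/ErbB2 and ErbB2 array was below every Cas array, and every Cas array was below every control array, while Cas/ErbB2 and ErbB2 overlapped. The difference from control was -1.40 ± 0.16 (adjusted p = 2.74e-05) in Cas/ErbB2, a signal 2.64-fold lower, -1.20 ± 0.16 (adjusted p = 0.000149) in ErbB2 and -0.61 ± 0.16 (adjusted p = 0.0138) in Cas. Against Cas, Cas/ErbB2 was lower by a difference of -0.79 ± 0.16 (adjusted p = 0.00715). It was the one member called in all 3 comparisons with control. Without Cas/ErbB2 replicate 3 its differences in Cas/ErbB2 were -1.29 from control (adjusted p = 6.63e-05) and -0.68 from Cas (adjusted p = 0.0168). The call in Cas against control was lost without control replicate 2 (-0.52, adjusted p = 0.0642) and with the mean of both DSC3 probes (-0.37, adjusted p = 0.106).

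DSG3, desmoglein 3, is the basal desmoglein that pemphigus vulgaris antibodies attack. The log2 signal of DSG3 was 12.20, 12.15 and 11.75 on the Cas/ErbB2 arrays, 12.44, 12.43 and 12.51 on the ErbB2 arrays, 12.88, 13.01 and 12.75 on the Cas arrays and 12.93, 13.31 and 12.97 on the control arrays. All Cas/ErbB2 arrays were below all ErbB2 arrays, and these were below all Cas arrays, while Cas and control overlapped. The difference from control was -1.04 ± 0.15 (adjusted p = 0.000211) in Cas/ErbB2, 2.05-fold lower, and -0.61 ± 0.15 (adjusted p = 0.0105) in ErbB2. Cas against control gave -0.19 ± 0.15 (adjusted p = 0.386). Cas/ErbB2 was lower than Cas by 1.8-fold, -0.85 ± 0.15 (adjusted p = 0.00345), the largest difference among the members in that comparison. Although the arrays did not overlap, Cas/ErbB2 against ErbB2 was not called (-0.43 ± 0.15 (adjusted p = 0.178)). Without Cas/ErbB2 replicate 3 the differences of Cas/ErbB2 were -0.90 from control (adjusted p = 0.000365) and -0.71 from Cas (adjusted p = 0.00647). Without control replicate 2 the ErbB2 call was lost (-0.49, adjusted p = 0.0534).

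DSP, desmoplakin, anchors keratin filaments in the plaque. The log2 signal of DSP was 13.20, 13.31 and 12.95 on the Cas/ErbB2 arrays, 13.59, 13.40 and 13.43 on the ErbB2 arrays, 13.89, 13.93 and 13.82 on the Cas arrays and 14.01, 14.36 and 14.21 on the control arrays. The arrays of Cas/ErbB2 all lay below those of ErbB2, those of ErbB2 below those of Cas, and those of Cas below those of control. The mean raw signal, before any correction, was 10129 in Cas/ErbB2, 12505 in ErbB2, 14886 in Cas and 16849 in control, although replicate 3 of Cas/ErbB2, the brightest array, read 14781. The normalized difference from control was -1.04 ± 0.14 (adjusted p = 8.47e-05) in Cas/ErbB2, 2.06-fold lower, and -0.72 ± 0.14 (adjusted p = 0.002) in ErbB2. Cas against control gave -0.31 ± 0.14 (adjusted p = 0.106), and Cas/ErbB2 against Cas -0.73 ± 0.14 (adjusted p = 0.0044). Without Cas/ErbB2 replicate 3 the 2 differences of Cas/ErbB2 were -0.94 (adjusted p = 0.000163) and -0.62 (adjusted p = 0.00901). With the mean of the kept DSP probes, Cas/ErbB2 against Cas was -0.42 and no longer called (adjusted p = 0.051). That mean takes in the dimmest DSP probe, which was detected on none of the Cas/ErbB2 and Cas arrays.

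JUP, plakoglobin, is the catenin shared by desmosomes and adherens junctions. The log2 signal of JUP was 13.29, 13.06 and 12.74 on the Cas/ErbB2 arrays, 13.41, 13.21 and 13.18 on the ErbB2 arrays, 13.67, 13.69 and 13.53 on the Cas arrays and 14.05, 14.04 and 13.93 on the control arrays. Every control array was above every Cas array, and every Cas array above every Cas/ErbB2 and ErbB2 array, while these last groups overlapped. The difference from control was -0.98 ± 0.15 (adjusted p = 0.000239) in Cas/ErbB2, 1.97-fold lower, -0.74 ± 0.15 (adjusted p = 0.00265) in ErbB2 and -0.38 ± 0.15 (adjusted p = 0.0709) in Cas, which was not called. Cas/ErbB2 was lower than Cas, -0.60 ± 0.15 (adjusted p = 0.0217), and this call was lost without Cas/ErbB2 replicate 2 (adjusted p = 0.0505), without Cas replicate 1 (adjusted p = 0.0752), without Cas replicate 2 (adjusted p = 0.0758), with the 6 arrays alone (adjusted p = 0.116) and under median scaling (adjusted p = 0.0752). The same call was also lost with the mean of the kept JUP probes and with the second brightest JUP probe (adjusted p = 0.369). Without Cas/ErbB2 replicate 3 the differences were -0.83 from control (adjusted p = 0.000322) and -0.45 from Cas (adjusted p = 0.0394).

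CDH1, E-cadherin, is the main classical cadherin of epithelia. The log2 signal of CDH1 was 10.23, 10.88 and 10.41 on the Cas/ErbB2 arrays, 10.74, 10.70 and 10.92 on the ErbB2 arrays, 11.07, 11.19 and 10.72 on the Cas arrays and 10.98, 11.34 and 11.50 on the control arrays. Cas/ErbB2 lay below control on every array, whereas both ErbB2 and Cas had an array within the range of another group. The difference from control was -0.77 ± 0.20 (adjusted p = 0.00732) in Cas/ErbB2, 1.7-fold lower, and was not called in ErbB2 (-0.49 ± 0.20 (adjusted p = 0.0768)) or Cas (-0.28 ± 0.20 (adjusted p = 0.302)). Cas/ErbB2 against Cas was not called either (-0.49 ± 0.20 (adjusted p = 0.149)), with a 95% interval of -0.91 to -0.06. Without Cas/ErbB2 replicate 3 the difference of Cas/ErbB2 from control was -0.72 (adjusted p = 0.0177).

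CDH3, P-cadherin, is the classical cadherin of basal and myoepithelial breast cells. The log2 signal of CDH3 was 13.15, 13.12 and 12.61 on the Cas/ErbB2 arrays, 13.30, 12.87 and 12.94 on the ErbB2 arrays, 13.20, 13.40 and 12.96 on the Cas arrays and 13.36, 13.69 and 13.45 on the control arrays. Replicate 3 was the lowest Cas/ErbB2 array by a wide margin, and the other Cas/ErbB2 arrays lay within the range of the Cas arrays. The difference of Cas/ErbB2 from control was -0.54 ± 0.19 (adjusted p = 0.0332), and it was lost without Cas/ErbB2 replicate 3 (-0.37, adjusted p = 0.106), without control replicate 2 (-0.45, adjusted p = 0.12), without control replicate 3 (-0.57, adjusted p = 0.0627), with the 6 arrays alone (adjusted p = 0.0578) and under median scaling (-0.40, adjusted p = 0.118). ErbB2 and Cas against control gave -0.46 ± 0.19 (adjusted p = 0.0793) and -0.32 ± 0.19 (adjusted p = 0.23), and Cas/ErbB2 against Cas -0.23 ± 0.19 (adjusted p = 0.531). No other comparison of CDH3 was called.

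The remaining members were not called by their brightest probe in any of the comparisons. DSC2, desmocollin 2, the more widely expressed desmocollin, had log2 signals of 10.90, 11.45 and 11.46 on the Cas/ErbB2 arrays, 11.14, 11.21 and 11.24 on the ErbB2 arrays, 11.01, 11.06 and 11.18 on the Cas arrays and 10.74, 11.15 and 11.12 on the control arrays. Its difference of Cas/ErbB2 from control was 0.26 ± 0.17 (adjusted p = 0.219), with a 95% interval of -0.10 to 0.63, while that of its neighbour DSC3 was -1.75 to -1.05. DSG2, desmoglein 2, the desmoglein found in all desmosome-bearing tissues, averaged 13.30 ± 0.06 in Cas/ErbB2, 13.33 ± 0.07 in ErbB2, 13.39 ± 0.09 in Cas and 13.59 ± 0.24 in control, and its 95% interval in Cas/ErbB2 against control was -0.58 to 0.01. PKP3, plakophilin 3, was the most variable: 10.22, 10.66 and 9.66 on the Cas/ErbB2 arrays, 10.33, 10.12 and 8.69 on the ErbB2 arrays, 9.94, 9.99 and 10.01 on the Cas arrays and 9.64, 9.70 and 10.04 on the control arrays. Its interval in Cas/ErbB2 against control, -0.40 to 1.17, leaves room for a change in either direction. Cas/ErbB2 against Cas gave 0.18 ± 0.17 (adjusted p = 0.585) for DSC2, -0.09 ± 0.14 (adjusted p = 0.763) for DSG2 and 0.20 ± 0.36 (adjusted p = 0.806) for PKP3. Within the chromosome 18 run, DSC3 and DSG3 were thus lower than control in Cas/ErbB2 and in ErbB2 by their brightest probes. DSC2 was not called, and DSG2 was called lower than control only by its dimmer probe, described below. DSC1, DSG1 and DSG4 were not detected on any array.

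**Figure D2:**
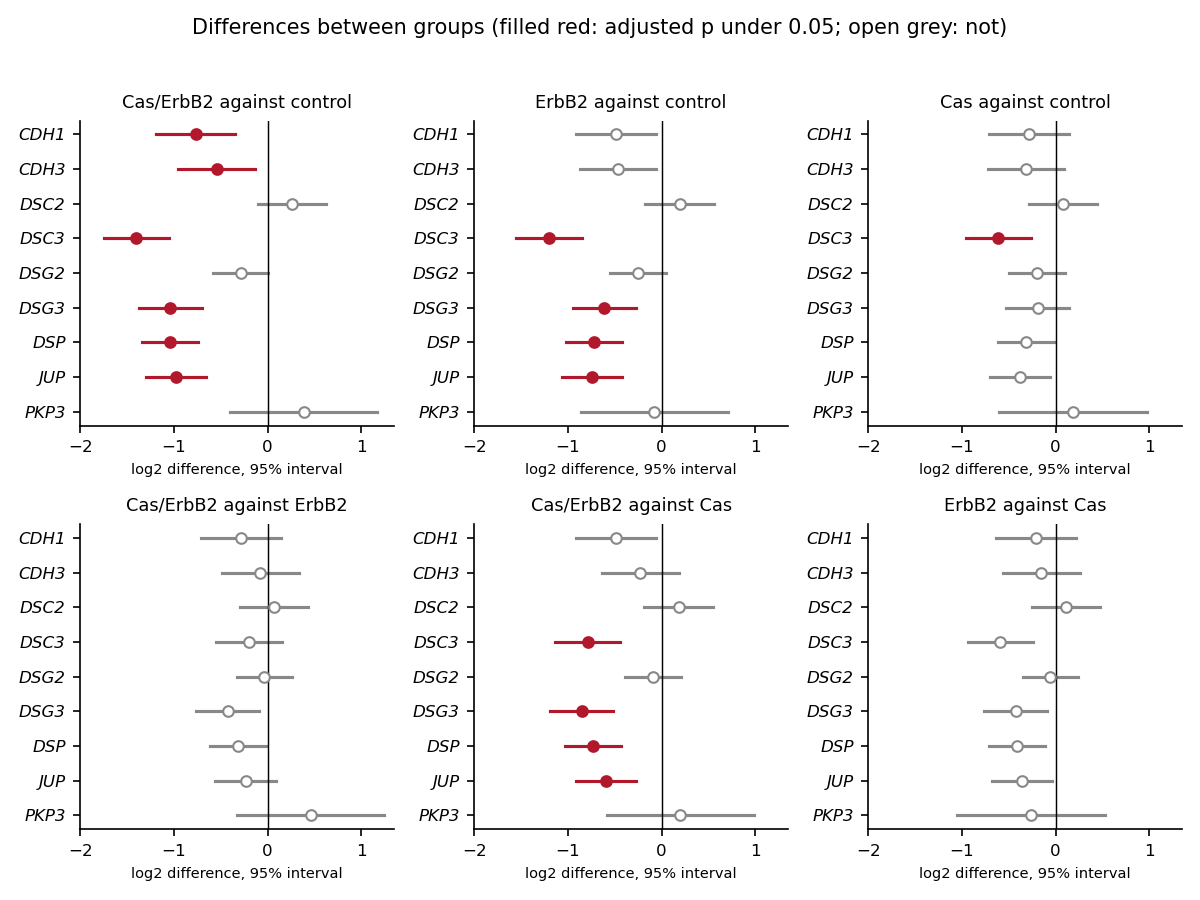
Log2 difference between group means (first group minus second) with its 95% interval for each tested gene, 1 panel for each of 6 comparisons; filled red points have an adjusted p under 0.05. DSC3, DSG3, DSP and JUP are called in both Cas/ErbB2 and ErbB2 against control and in Cas/ErbB2 against Cas, and no point is called in Cas/ErbB2 against ErbB2 or in ErbB2 against Cas.

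In ErbB2 the genes DSC3, DSG3, DSP and JUP were lower than in control. Of 9 members 4 were lower, 0 higher and 5 not called, with a median difference of -0.49 against 0.02 over all items, and 30.6% of all items were called, 16.8% lower (10.9% of those detected on all arrays). ErbB2 did not overlap control for 6 members, and 51.2% of all items did not overlap. CDH1 and CDH3 had unadjusted p-values of 0.0279 and 0.0291 there and were not called after adjustment. Cas against control had 1 member lower, DSC3, 0 higher and 8 not called, with a median of -0.28 against 0.00 over all items, and 29.3% of items called, 16% lower (7.36% of those detected on all arrays). Cas did not overlap control for 3 members, where 50.4% of all items did not overlap. DSP and JUP had unadjusted p-values of 0.0417 and 0.0237 in Cas.

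Without any control array in the comparison, DSC3, DSG3, DSP and JUP were lower in Cas/ErbB2 than in Cas: 4 of 9 members lower, 0 higher and 5 not called, median -0.49 against -0.02 over all items, where 10.6% of items were called and 5.7% were called lower (7.03% of those detected on all arrays). The 3 arrays of each group did not overlap for 4 members, where 25.1% of all items did not overlap. When the 9 arrays without control were normalized on their own, the count was again 4. Between Cas/ErbB2 and ErbB2 there was no call: Cas/ErbB2 against ErbB2 had 0 of 9 members called by limma, 2 (DSG3 and DSP) at an unadjusted p under 0.05, a median of -0.20, and 2.75% of all items called. The arrays did not overlap for those 2 members, where 17.5% of all items did not overlap. ErbB2 against Cas likewise had 0 called, 4 (DSC3, DSG3, DSP and JUP) at an unadjusted p under 0.05 and all 4 of these without overlap of the arrays, with a median of -0.26, while 1.56% of all items were called and 19.1% did not overlap. DSC3 came nearest there, -0.59 ± 0.16 (adjusted p = 0.12), ErbB2 being the lower. Comparisons with control share the control arrays, and those with Cas/ErbB2 share its arrays, so their calls are not independent of each other.

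The 4 group means had the same order for 7 of the 9 members: lowest in Cas/ErbB2, then ErbB2, then Cas, and highest in control. This order was held by CDH1, CDH3, DSC3, DSG2, DSG3, DSP and JUP, and by 13% of all items (14.8% of those detected on all arrays). DSC2 had the opposite order, held by 10.5% of all items. In this order the neighbouring groups differed by a call only once, for DSC3 between Cas and control.

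Whether the difference with both proteins departed from the sum of the differences with each alone was asked by the interaction, Cas/ErbB2 minus Cas less ErbB2 minus control. No member was called by limma, 0 had an unadjusted p under 0.05, and 14.2% of all items were called. The interaction was -0.01 ± 0.19 for DSP, 0.00 ± 0.28 for CDH1, 0.15 ± 0.21 for JUP, -0.24 ± 0.22 for DSG3 and 0.41 ± 0.23 for DSC3. The 95% intervals were -0.43 to 0.42 for DSP, -0.31 to 0.60 for JUP and -0.08 to 0.91 for DSC3.

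Several members had more than 1 probe, and the probes did not always give the same size. Over DSC2, DSC3, DSG2, DSP and JUP, 11 probes were detected on all 12 arrays. In Cas/ErbB2 against control 9 of the 11 were negative, 6 were called lower and 0 higher, and the 2 positive ones were both of DSC2. Of all items, 24.5% were called lower there. In Cas/ErbB2 against Cas 9 were negative, 4 were called lower and 0 higher, where 5.7% of all items were called lower. Probes of the same gene are not independent of each other. The second DSC3 probe gave -0.82 ± 0.20 (adjusted p = 0.00523) in Cas/ErbB2 against control and -0.69 ± 0.20 (adjusted p = 0.0441) against Cas, but it was not called in ErbB2 (-0.45 ± 0.20 (adjusted p = 0.0971)) or Cas (-0.13 ± 0.20 (adjusted p = 0.659)) against control. The dimmest JUP probe gave -1.01 ± 0.21 (adjusted p = 0.00197) in Cas/ErbB2 and -0.78 ± 0.21 (adjusted p = 0.013) in ErbB2, while the middle one was not called in either (-0.57 ± 0.24 (adjusted p = 0.0635) and -0.24 ± 0.24 (adjusted p = 0.463)). In Cas/ErbB2 against Cas neither was called, -0.63 ± 0.21 (adjusted p = 0.0787) for the dimmest and -0.39 ± 0.24 (adjusted p = 0.369) for the middle one.

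**Figure D3:**
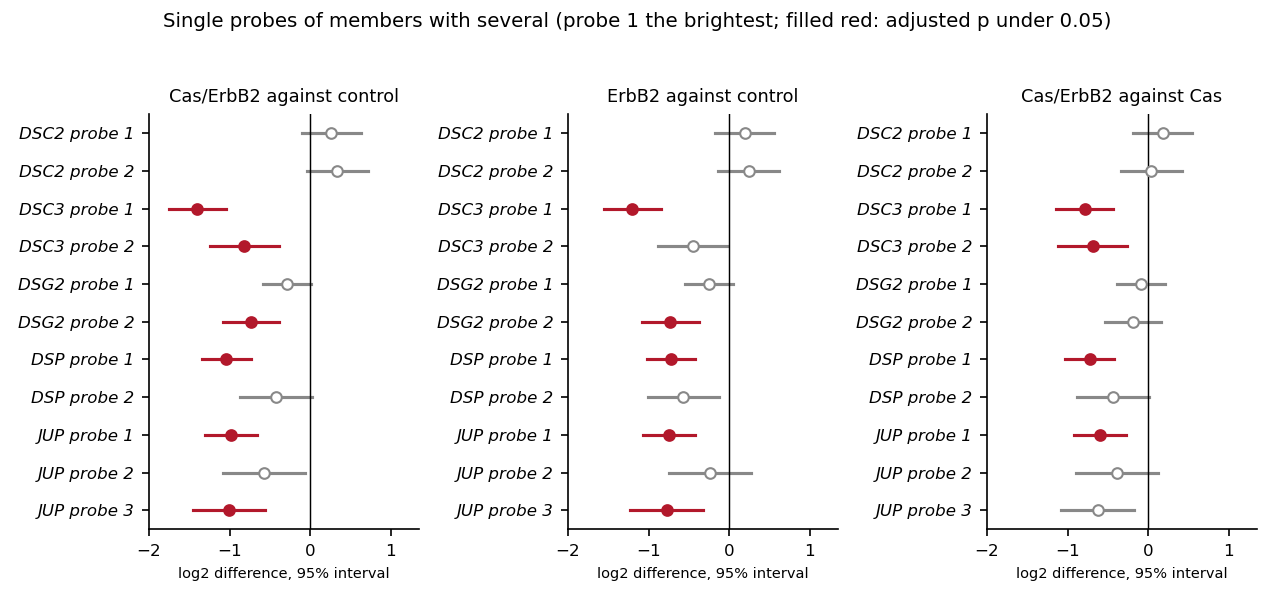
Log2 difference with its 95% interval for each of the 11 probes detected on all arrays, for 3 comparisons, with adjusted p over all kept probes; probe 1 of a gene is the brightest and filled red points have an adjusted p under 0.05. Both DSC3 probes are called in Cas/ErbB2 against control and against Cas, the dimmer DSG2 probe is called where the brighter one is not, and both DSC2 probes lie above 0.

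For DSG2 the dimmer of the probes was the one called. It was lower than control in Cas/ErbB2, -0.73 ± 0.16 (adjusted p = 0.00312), in ErbB2, -0.73 ± 0.16 (adjusted p = 0.00477), and in Cas, -0.55 ± 0.16 (adjusted p = 0.0238), while the brighter probe was called in none of these. Neither probe was called in Cas/ErbB2 against Cas. For DSP, the second probe was not called in Cas/ErbB2 (-0.43 ± 0.20 (adjusted p = 0.106)) or ErbB2 (-0.57 ± 0.20 (adjusted p = 0.0503)) against control, nor in Cas/ErbB2 against Cas (-0.44 ± 0.20 (adjusted p = 0.224)). The dimmest DSP probe was detected on the 3 control arrays and no other, with mean raw signals of 231.62 in Cas/ErbB2, 246.3 in ErbB2, 265.23 in Cas and 244.65 in control. This probe passed the filter only through control, so no test is given for it. Which transcripts each probe reads was not analysed here.

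Among other genes of the desmosome and of the cornified junction plaque, PPL moved like JUP. PPL codes for periplakin, a plakin of the same family as desmoplakin. Its log2 signal was 10.99, 10.81 and 10.43 on the Cas/ErbB2 arrays, 10.91, 10.89 and 11.09 on the ErbB2 arrays, 11.43, 11.38 and 11.31 on the Cas arrays and 11.90, 11.86 and 11.64 on the control arrays. The Cas arrays lay above all Cas/ErbB2 and ErbB2 arrays and below all control arrays. PPL was lower than control in Cas/ErbB2, -1.06 ± 0.15 (adjusted p = 0.000165), and in ErbB2, -0.84 ± 0.15 (adjusted p = 0.00144), and lower in Cas/ErbB2 than in Cas, -0.63 ± 0.15 (adjusted p = 0.0193), a call lost without Cas replicate 1 or 2 (highest adjusted p 0.0714). Of the 9 genes listed in this group 5 were tested: 1 was lower, 0 higher and 4 not called in Cas/ErbB2 against control, with a median of 0.28 against 0.00 over all items. In that comparison 24.5% of all items were called lower and 21% higher. EVPL, envoplakin, its partner, gave 0.33 ± 0.21 (adjusted p = 0.205) there, and PERP, a tetraspan protein of desmosomes, 0.28 ± 0.12 (adjusted p = 0.0753). PKP2, plakophilin 2, was higher in Cas/ErbB2 than in Cas, 0.56 ± 0.15 (adjusted p = 0.0272), and not called against control (0.31 ± 0.15 (adjusted p = 0.0975)); the call was lost without Cas/ErbB2 replicate 2 or 3 or Cas replicate 2 or 3 (highest adjusted p 0.105).

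The adherens junction partners of CDH1 were called in both directions. Of 14 listed genes 12 were tested. Cas/ErbB2 against control had 2 higher, 1 lower and 9 not called, with a median of 0.09 against 0.00 over all items. Over all items, 21% were called higher and 24.5% lower in that comparison. CTNNB1, β-catenin, gave 0.19 ± 0.20 (adjusted p = 0.456) and CTNNA1, α-catenin, -0.07 ± 0.18 (adjusted p = 0.771). CTNND1, p120-catenin, which steadies cadherins at the membrane, was higher, 0.66 ± 0.24 (adjusted p = 0.0422), though the arrays overlapped, and Cas/ErbB2 against Cas gave -0.10 ± 0.24 (adjusted p = 0.867). It was not recomputed under other settings. CTNNAL1, an α-catenin relative, was higher in Cas/ErbB2 than in control, 0.44 ± 0.14 (adjusted p = 0.0221), and AJUBA, a LIM protein of these junctions, was lower, -0.44 ± 0.13 (adjusted p = 0.0183). The calls of CTNNAL1 and AJUBA were lost when some single arrays were left out, with highest adjusted p-values of 0.0923 for CTNNAL1 and 0.0668 for AJUBA over 21 settings.

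Keratins, to which desmosomes are anchored, moved in both directions. In Cas/ErbB2 against control 2 of 8 tested genes (of 11 listed) were higher, 3 lower and 3 not called, where 21% of all items were higher and 24.5% lower. KRT5, the type II keratin of basal cells, was lower, -0.57 ± 0.14 (adjusted p = 0.00502), as was KRT15, -0.75 ± 0.13 (adjusted p = 0.000716), and KRT8, a simple-epithelial keratin, -0.81 ± 0.21 (adjusted p = 0.00759). KRT7 and KRT18, also simple-epithelial keratins, were higher, 1.05 ± 0.22 (adjusted p = 0.00243) and 0.87 ± 0.24 (adjusted p = 0.0128). The arrays of KRT18 overlapped, with an SD of 0.61 in Cas/ErbB2, and its call was not recomputed under other settings. KRT14, the basal partner of KRT5, was not called, -0.26 ± 0.12 (adjusted p = 0.0875). Against Cas, KRT15 was lower in Cas/ErbB2, -0.74 ± 0.13 (adjusted p = 0.00292), while KRT5 (-0.25 ± 0.14 (adjusted p = 0.308)), KRT8 (-0.48 ± 0.21 (adjusted p = 0.183)), KRT7 (0.66 ± 0.22 (adjusted p = 0.0842)) and KRT18 (-0.02 ± 0.24 (adjusted p = 0.981)) were not called.

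Of the repressors known to act on cadherin promoters, SNAI2 (Slug) was the one called higher in Cas/ErbB2 against every other group. The log2 signal of SNAI2 was 13.80, 13.78 and 13.73 on the Cas/ErbB2 arrays, 13.18, 13.30 and 13.29 on the ErbB2 arrays, 12.92, 12.93 and 12.94 on the Cas arrays and 13.05, 13.22 and 13.23 on the control arrays. Every Cas/ErbB2 array was above every array of the other groups. The difference was 0.60 ± 0.11 (adjusted p = 0.000892) from control, 0.84 ± 0.11 (adjusted p = 0.000329) from Cas and 0.51 ± 0.11 (adjusted p = 0.0288) from ErbB2, the last lost under median scaling, without Cas/ErbB2 replicate 1 or 2 and without any 1 ErbB2 array (highest adjusted p 0.11). ErbB2 against control was not called (0.09 ± 0.11 (adjusted p = 0.56)), nor was Cas (-0.24 ± 0.11 (adjusted p = 0.122)). TWIST2, a basic helix-loop-helix factor, was higher than control in Cas/ErbB2, 1.42 ± 0.16 (adjusted p = 1.91e-05), in ErbB2, 0.92 ± 0.16 (adjusted p = 0.000861), and in Cas, 0.84 ± 0.16 (adjusted p = 0.00179), and Cas/ErbB2 against Cas gave 0.58 ± 0.16 (adjusted p = 0.0328), held in 12 of 21 settings (highest adjusted p 0.124). Of the 10 repressors listed 7 were tested, and 2 were higher, 3 lower and 2 not called in Cas/ErbB2 against control. The shares over all items there were 21% higher and 24.5% lower. The tested repressors had a median difference of -0.39 there, against -0.004 over all items. TCF4 and KLF8, 2 of those lower, were detected on the control arrays alone and so passed the filter only through control. TWIST1, detected on all 12 arrays, averaged 10.84 in Cas/ErbB2, 10.65 in ErbB2, 11.01 in Cas and 11.23 in control. It was lower in ErbB2 than in control, -0.58 ± 0.16 (adjusted p = 0.0171), a call held in 17 of 21 settings (highest adjusted p 0.0643). SNAI1 and ZEB1 were not detected on any array.

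**Figure D4:**
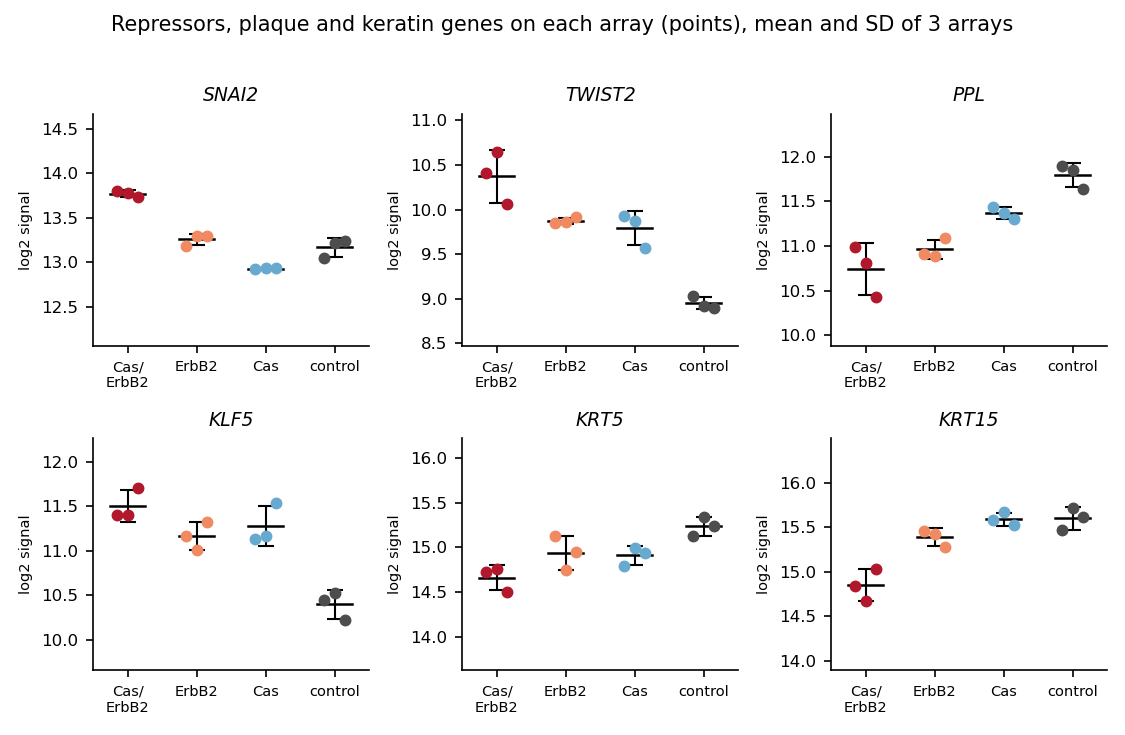
Log2 normalized signal on each array, by group (3 arrays each, points), with mean and SD as lines, for the repressors SNAI2 and TWIST2, the plaque gene PPL, the transcription factor KLF5 and the keratins KRT5 and KRT15. The Cas/ErbB2 points of SNAI2, between 13.73 and 13.80, lie above all others, and PPL steps up from Cas/ErbB2 to control.

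Among 15 listed transcription factors of epithelial junction genes 8 were tested, and 2 were higher, 4 lower and 2 not called in Cas/ErbB2 against control. The shares over all items there were 21% higher and 24.5% lower. KLF5 was higher, 1.10 ± 0.16 (adjusted p = 0.000153), as was ESRP1, a splicing factor of epithelial cells, 0.71 ± 0.21 (adjusted p = 0.0151), a call lost without Cas/ErbB2 replicate 1 or 2 or control replicate 3 (highest adjusted p 0.0638). GRHL3, a grainyhead-like factor, was lower, -1.09 ± 0.32 (adjusted p = 0.0166), with 2 of 3 Cas/ErbB2 arrays detecting it, and OVOL2 was detected on all 3 control arrays and on 0 of 3 Cas/ErbB2 arrays. Against Cas, KLF5 (0.22 ± 0.16 (adjusted p = 0.451)), ESRP1 (-0.04 ± 0.21 (adjusted p = 0.943)) and GRHL3 (-0.99 ± 0.32 (adjusted p = 0.0756)) were not called. TFAP2A was lower in Cas/ErbB2 than in Cas, -0.56 ± 0.13 (adjusted p = 0.0186), a call lost under median scaling and without Cas replicate 1 or 2 (highest adjusted p 0.0721). Of the listed cadherins outside this set, 5 of 15 were tested. CDH2, N-cadherin, the classical cadherin that often replaces E-cadherin in motile cells and the neighbour of DSC3, was detected on the 3 control arrays and on none of the other 9. It passed the filter only through control, so no test is given. CDH6, K-cadherin, was detected on 1 of 3 Cas/ErbB2 arrays, 1 of 3 ErbB2 arrays, 2 of 3 Cas arrays and 0 of 3 control arrays, too few for a fold.

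Of the listed genes that shed, cleave or turn over cadherins, MMP7 was lower in Cas/ErbB2 than in Cas and control. Of 14 listed genes 11 were tested, and 1 was higher, 2 lower and 8 not called in Cas/ErbB2 against control. The shares over all items there were 21% higher and 24.5% lower. MMP7, matrilysin, which can shed E-cadherin, was detected on 0 of 3 Cas/ErbB2 arrays, 1 of 3 ErbB2 arrays and all Cas and control arrays. Its measured means were 6.91 ± 0.19 in Cas/ErbB2 and 7.80 ± 0.40 in ErbB2, mostly below background and so without an order between them, 8.73 ± 0.21 in Cas and 9.53 ± 0.19 in control (SD, n = 3 each). It was at least 3.08-fold lower in Cas/ErbB2 than in control (adjusted p = 1.61e-06) and at least 1.77-fold lower than in Cas (adjusted p = 9.58e-05). KLK7, a kallikrein protease that cleaves desmosomal proteins of the skin, was lower in Cas/ErbB2 than in Cas, -2.50 ± 0.39 (adjusted p = 0.00129), with 1 of 3 Cas/ErbB2 arrays detecting it, so that its size is uncertain (-2.99 to -1.49 over 20 settings), and Cas/ErbB2 against control was not called (-0.78 ± 0.39 (adjusted p = 0.125)). Among the kinases and other regulators of desmosomes, EGFR was lower than control in all 3 groups, -1.20 ± 0.13 (adjusted p = 1.59e-05) in Cas/ErbB2, -1.09 ± 0.13 (adjusted p = 5.3e-05) in ErbB2 and -1.03 ± 0.13 (adjusted p = 9.19e-05) in Cas, and PRKCA, the α isoform of protein kinase C, was higher in Cas/ErbB2, 1.32 ± 0.18 (adjusted p = 0.000103). Cas/ErbB2 against Cas was not called for EGFR (-0.17 ± 0.13 (adjusted p = 0.487)), and for PRKCA it was higher, 0.67 ± 0.18 (adjusted p = 0.0311), a call held in 14 of 21 settings. Of 11 genes listed there 10 were tested, and 3 were higher, 3 lower and 4 not called in Cas/ErbB2 against control.

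Profiles over the 12 arrays were then compared with those of 6550 other named genes detected on all arrays, by the root mean square of the differences after each profile was centred on its mean. The gene closest to JUP was BASP1 (0.094 on the log2 scale), followed by PPL (0.098), where the median over all candidates was 0.440. TMEM109 was closest to DSP (0.096, median 0.454), ZBTB16 and TNK2 to DSG3 (0.109 each, median 0.469) and IRX2 to DSC3 (0.140, median 0.596). FAT1, a large atypical cadherin, was closest to CDH1 (0.142, median 0.407), and CLSTN1, calsyntenin 1, itself a protein with cadherin repeats, to CDH3 (0.096, median 0.364). IRX2 averaged 10.45 ± 0.26 in Cas/ErbB2, 10.74 ± 0.10 in ErbB2, 11.11 ± 0.10 in Cas and 11.73 ± 0.19 in control (SD, n = 3 each). These are descriptions over 12 arrays in 4 groups, with no test.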

How the data were processed

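The deposited table gives 2 columns per array, per the file headers: the average signal of each probe's beads, a linear intensity with no background taken off and no normalization, and a detection p-value. The authors' second table holds processed intensities, which by comparison with the signals are quantile normalized, and it served as an alternative. No source used here names the software. The array design named in the labels is smaller than the 47224 probes in the table. Gene names came from GEO's platform annotation: 30111 probes had 1 symbol, 8 several and 17105 none.

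Signals were corrected and quantile normalized with neqc in limma 3.58.1 (R 4.3.3; offset 16), giving log2 values. Probes with a detection p under 0.05 on at least 3 arrays were kept (19777), and a gene was read by its brightest kept probe. Means of the 4 groups were fitted with lmFit and eBayes over 16171 items, with Benjamini-Hochberg adjusted p-values. Arrays were grouped by genotype label. Arrays of other groups with the same replicate number deviated together weakly (median r 0.078, from -0.088 to 0.194 over 18 pairs). For other numbers the median was -0.020 (-0.236 to 0.095 over 36 pairs). Of the 12 arrays 8 deviated most like an array of their own number, so a pairing is possible. The labels do not say what a shared number marks, so the main fit has no replicate block. A fit with a block was among the alternatives. The steps were tested on simulated data. Alternatives changed the background correction, normalization, filter, probe choice and model, or left out 1 array; the second brightest probe and median scaling over all probes were added after the data were seen.

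The members and lists were chosen with earlier results of these data known. Listed genes were named from the 4 or fewer called genes per comparison with the largest differences and no overlap of arrays, and not all of these are named; CTNNA1, CTNNB1, CTNND1, EVPL, PERP, KRT14 and KRT18 were also named after their values were seen. Promoter sequences are RefSeq's for GRCh38.p14. The number of arrays limits the precision.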

Additional observations from a re-analysis of the deposited data

How the results depend on the processing

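The 15 calls of members were recomputed under up to 28 settings each: of 409 values 382 kept direction and call, 27 kept direction and lost the call, and 0 changed sign. CDH1, DSC3 and DSG3 in Cas/ErbB2 against control were called in every setting. CDH1 and DSG3 have 1 probe each, so the settings that change the probe of a gene could not test them. Those settings did test DSC3, DSP and JUP. In that comparison DSP and JUP lost their calls only with the second brightest probe. The 48 uncalled values, over 1310 recomputed values, gained a call with the same sign in 55 and with the opposite sign in 8. The number of members called in Cas against control was 1, but 2 with normexp, with no background correction, with the authors' processed values, with the arrays of the comparison alone and with a replicate block (which added JUP, adjusted p = 0.0422, and changed no other count), 3 with trend and robust moderation and 3 with array weights; it ranged from 0 (without control replicate 2) to 2 (without Cas/ErbB2 replicate 1 or 3) when 1 array was left out. In ErbB2 against control the 4 became 7 with array weights and 2 with the second brightest probes, and 3 to 6 without 1 array. In Cas/ErbB2 against Cas the 4 became 2 with the mean of kept probes and 2 with the second brightest probes, and 3 to 4 without 1 array. The mean for DSP takes in a probe detected on the control arrays alone. In ErbB2 against Cas the 0 by limma became 1, DSC3, with trend and robust moderation and 1 with array weights. Leaving out 1 array gave 5 to 7 members in Cas/ErbB2 against control.

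Median scaling over all probes, most of them undetected, shifted the median of all items by -1.61 in Cas/ErbB2, -1.45 in ErbB2 and -1.66 in Cas against control and by 1.42 in the interaction. It gave 9 members called in ErbB2 and 9 in Cas against control, 9 in the interaction and 0 in Cas/ErbB2 against Cas. It turned the sign of DSC2 in Cas/ErbB2 (-1.58), ErbB2 (-1.43) and Cas (-1.77) against control and in the interaction (1.62), of PKP3 in Cas/ErbB2 (-1.53) and Cas (-1.71) against control, and of DSG3 (1.31) and DSP (1.47) in the interaction. The cause was not tested. Median scaling over detected probes shifted all items by 0.28 in Cas/ErbB2 against control and moved the share of lower calls there to 27.7%, against 53.9% under quantile normalization, with 5 members still called. With 3 arrays a group, a difference that was not called may still be present. In the simulated arrays 8% of changes of 0.5 and 74% of changes of 1 on the log2 scale were called in Cas/ErbB2 against control. That simulation had 147 items called, against 7356 in the data, so these shares need not hold for the data. The control's hybridizations and background cannot be told apart from its group.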
